A study of Mus musculus with 11 samples.

Results

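The 7 genes described here are those of the classical MHC class II pathway chosen by symbol: H2-Aa, H2-Ab1 and H2-Eb1, which encode chains of the antigen-presenting heterodimers, Cd74, H2-DMa and H2-DMb1, which encode the proteins that guide and load them, and Ciita, which encodes their transactivator. All 7 were found among the 24411 genes of the files. They were measured by total RNA sequencing of back skin from 11 mouse samples, 4 in the tdTomato-positive and 7 in the tdTomato-negative group. The names refer to the transplanted marrow: cells sorted from the femoral marrow of Pdgfra-Cre;tdTomato donors that did (positive) or did not (negative) carry tdTomato, the mark of a lineage in which the Pdgfra-driven Cre has been active. The mark records past Cre activity in a cell's lineage, not present Pdgfra expression.

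All hosts were of the strain Tg(act-EGFP)Y01Osb, which carries an EGFP transgene, with an age of 16 to 18 for which the labels give no unit. In both groups the hosts were irradiated with 10 Gy before the transplantation, recovered for 6 weeks, received MC903 on the back skin 6 times and gave skin on day 14. MC903 is a vitamin D analog that induces a dermatitis used as a model of atopic dermatitis. Both groups therefore carried dermatitis, irradiation and a transplant. The sources used here give neither the number of donors nor the share of donor cells in the skin. Nor do the labels say that a numbered sample is a separate animal, so the p-values speak of the spread among these samples, which may be technical. No untreated skin is among the samples analysed here. Whole-skin RNA holds host and donor transcripts together, and fewer cells of a type cannot be told apart from less RNA per cell.

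MHC class II molecules show peptides from the endosomes of antigen-presenting cells to CD4 T cells. The α and β chains pair in the endoplasmic reticulum with the invariant chain CD74, which blocks the groove and directs the complex to endosomes. There its remnant is exchanged for peptide with the help of H2-DM. In skin, dendritic cells, Langerhans cells and part of the macrophages carry these molecules, and interferon-gamma can induce them in other cells. CIITA does not bind DNA itself. It is recruited by RFX, CREB and NF-Y proteins that sit on the X and Y boxes of class II promoters.

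Promoter sequences of 4 of the 7 genes were matched in RefSeq on GRCm38.p6, the build named in the submitters' processing notes. Those of H2-Aa, H2-Eb1 and H2-DMb1 are shown because they are the member promoters of the table that hold an X core and a Y core at the spacing given below. That of H2-Ob, a chain of an H2-DM inhibitor used mainly by B cells, is shown because it holds the same arrangement although the gene was barely detected in this skin. Each runs 5′ to 3′ on the strand of the gene, from 250 bases before the start to 50 after it. Capitals mark CTNGNAAC, a core of the X box, and ATTGG, the core of the Y box. Their regions are chr17:34287774-34288073 on the minus strand for H2-Aa and, on the plus strand, chr17:34305617-34305916 for H2-Eb1, chr17:34152941-34153240 for H2-DMb1 and chr17:34238655-34238954 for H2-Ob.
H2-Aa: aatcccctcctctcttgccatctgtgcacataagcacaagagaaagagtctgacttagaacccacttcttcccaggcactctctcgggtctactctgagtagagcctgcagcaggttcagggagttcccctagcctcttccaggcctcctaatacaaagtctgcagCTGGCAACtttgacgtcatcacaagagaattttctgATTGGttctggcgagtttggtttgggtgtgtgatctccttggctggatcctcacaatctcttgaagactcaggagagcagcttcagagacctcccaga
H2-Eb1: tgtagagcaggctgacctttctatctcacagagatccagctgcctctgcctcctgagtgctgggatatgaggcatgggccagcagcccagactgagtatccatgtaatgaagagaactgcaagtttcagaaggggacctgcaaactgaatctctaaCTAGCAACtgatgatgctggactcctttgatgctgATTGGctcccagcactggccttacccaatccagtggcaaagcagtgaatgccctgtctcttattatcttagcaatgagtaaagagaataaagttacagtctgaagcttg
H2-DMb1: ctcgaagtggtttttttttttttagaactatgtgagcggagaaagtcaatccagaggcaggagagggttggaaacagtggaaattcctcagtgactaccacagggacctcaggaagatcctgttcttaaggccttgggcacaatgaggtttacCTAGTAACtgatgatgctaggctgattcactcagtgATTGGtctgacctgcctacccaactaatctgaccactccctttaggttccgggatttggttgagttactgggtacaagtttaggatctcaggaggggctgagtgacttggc
H2-Ob: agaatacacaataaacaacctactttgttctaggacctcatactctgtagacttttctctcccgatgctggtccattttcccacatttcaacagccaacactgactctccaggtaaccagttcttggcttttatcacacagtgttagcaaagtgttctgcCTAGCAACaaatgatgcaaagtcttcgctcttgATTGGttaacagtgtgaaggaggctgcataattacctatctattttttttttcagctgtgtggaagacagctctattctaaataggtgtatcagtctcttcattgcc

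In the 4 sequences the start of the capitalised X core lay 36 bases before the start of the Y core in H2-Aa, 35 in H2-Eb1, 36 in H2-DMb1 and 33 in H2-Ob. The letters of the X core were chosen after these promoters had been read, so the match is a description. On either strand, CTNGNAAC occurred in 13.2% and ATTGG in 37.4% of all 32851 promoters of the table. The ordered combination with starts 30 to 40 bases apart occurred in 0.143% of them. It was present in 3 of the 5 member promoters, and H2-DMa, for which the table lists 2 starts, had it in neither. Among 23 promoters of 16 other pathway genes it was found in 1, that of H2-Ob. The elements do not overlap each other at this spacing.

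The chromosomal positions follow the known arrangement of the mouse MHC. On GRCm38.p6 chromosome 17, H2-DMa lies from 34119693 to 34139101, H2-DMb1 from 34153191 to 34160229, H2-Ab1 from 34263227 to 34269418, H2-Aa from 34282744 to 34287823 and H2-Eb1 from 34305867 to 34316674. Ciita lies on chromosome 16 from 10480014 to 10531064. Its 5 RefSeq transcripts in the files were summed to the gene by the authors, so its alternative promoters were not separated.

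Expected counts, the read counts that RSEM estimates for each gene, summed to between 7190752 and 9749842 per sample. Markers of the labelled tissue were present in every sample: 4 keratinocyte keratins summed to between 15175 and 26847 TPM in the positive and between 7787 and 28514 TPM in the negative group, and 6 dermal fibroblast genes to between 4078 and 6665 TPM and between 3271 and 8799 TPM in the same groups. TPM give transcript abundance scaled for gene length. Hair follicle genes varied most, with sums of 383 to 9845 TPM in the positive and 281 to 29818 TPM in the negative group. CPM are read counts scaled to the library size with TMM factors and served the tests and the comparisons of 1 gene between samples, and TPM the comparisons between genes.

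The class II genes spanned a wide range of levels, with Cd74, H2-Aa, H2-Ab1 and H2-Eb1 above the H2-DM genes and Ciita. On the length-scaled TPM level, their order over the 11 samples was Cd74 with a mean of 450.3, H2-Aa with 274, H2-Ab1 with 194, H2-Eb1 with 112, H2-DMb1 with 26.5, H2-DMa with 13.2 and Ciita with 5.69 TPM. In every sample Cd74 exceeded H2-Aa by 1.47 to 1.85 times and H2-Aa exceeded H2-Ab1 by 1.27 to 1.71 times. H2-Eb1 stood at 0.524 to 0.632 of H2-Ab1. H2-DMb1, the β chain of the peptide-loading factor, exceeded its α chain H2-DMa by 1.58 to 2.50 times. The order of neighbours was thus the same in all 11 samples.

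**Figure D1:**
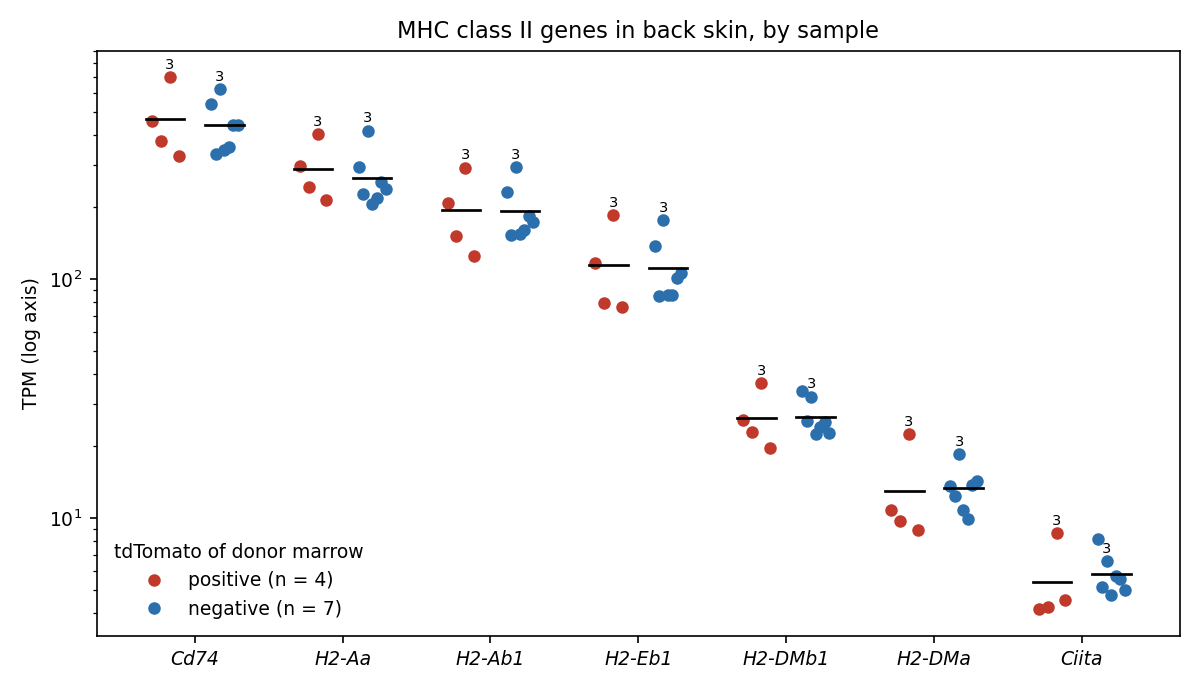
TPM on a log axis for the 7 genes in each of 4 positive (left of each pair) and 7 negative (right) samples, with points for samples, black lines for group means and the number 3 on replicate 3 of each group. Both groups spread over the same range, and replicate 3 is the highest sample of its group for Cd74, H2-Aa, H2-Ab1, H2-Eb1 and H2-DMa.

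None of the 7 class II genes differed between the groups by the test over all genes. Skin after tdTomato-positive and after tdTomato-negative marrow held nearly equal mean levels of each of them, and each gene's groups overlapped. With edgeR's quasi-likelihood test and Benjamini-Hochberg adjustment over all 14588 genes tested, 0 of 7 passed an adjusted p of 0.05. The share of all tested genes that passed was 0%, so the test separated no gene in these samples. At an unadjusted p under 0.05 it was also 0 of 7, where 16.8% of all tested genes had such a p. Groups that did not overlap in CPM were found for 0 of 7, against 1.67% of all tested genes. The log2 fold changes (positive minus negative) ran from -0.14 to 0.08, with 3 genes above 0, 4 below and a median of -0.03, and the median over all tested genes was -0.01.

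The classical chains come first. H2-Aa, the α chain of the I-A molecule, had 165, 136, 211 and 113 CPM in positive replicates 1 to 4, against a lowest value of 109, a median of 128 and a highest of 248 CPM in the 7 negative samples. One sample of each group, replicate 3, was highest, and all positive samples lay within the negative range. Its mean (± SD) was 156 ± 42.0 CPM over the 4 positive samples, against 148 ± 46.9 CPM over the 7 negative samples. The edgeR log2 fold change was 0.08 ± 0.22 (SE), with a 95% interval from -0.41 to 0.57 and an adjusted p of 0.875. In linear terms that interval spans 0.754 to 1.48 times the negative level, so these samples do not exclude a change within those limits.

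H2-Ab1, the β chain that pairs with H2-Aa, had 133, 97.6, 175 and 76.0 CPM in positive replicates 1 to 4. In the negative group it ran from 93.7 CPM over a median of 104 to 200.1 CPM. Positive replicate 4 was the lowest of all 11 samples and negative replicate 3 the highest, and the groups overlapped. The means (± SD) were 120 ± 43.4 CPM over the 4 positive samples and 123 ± 37.6 CPM over the 7 negative samples, with an edgeR log2 fold change of -0.03 ± 0.25 (SE), a 95% interval from -0.57 to 0.51 and an adjusted p of 0.966.

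H2-Eb1, the β chain of the I-E molecule, had 111, 76.1, 165 and 69.3 CPM in positive replicates 1 to 4, against 78.0 to 178 CPM with a median of 94.1 CPM in the negative samples. Positive replicates 2 and 4 were below every negative sample and positive replicate 3 above all but negative replicate 3. The edgeR log2 fold change was 0.00 ± 0.27 (SE), with a 95% interval from -0.59 to 0.60 and an adjusted p of 0.997. I-E needs an α chain, and the gene that the files name H2-Ea-ps was at a count of 0 in all 11 samples, which allows up to 3 counts in a sample. In mice of some MHC haplotypes this α chain gene is inactive, and the haplotype of hosts and donors is not given in the labels.

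Cd74, the invariant chain, was the highest of the members. Positive replicates 1 to 4 held 318, 263, 450 and 214 CPM, against 227 to 455 CPM with a median of 282 CPM in the negative samples. Replicate 3 was again highest in each group, at nearly the same level. Means (± SD) of 311 ± 102 CPM over the 4 positive samples and 301.2 ± 81.3 CPM over the 7 negative samples gave an edgeR log2 fold change of 0.05 ± 0.23 (SE), with a 95% interval from -0.44 to 0.54 and an adjusted p of 0.935. Relative to the summed TPM of the 3 chains, Cd74 was steady, at 0.738 to 0.800 in the positive and 0.700 to 0.852 in the negative group.

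The genes of the H2-DM peptide exchange factor were far lower. H2-DMa had 10.2, 9.20, 19.8 and 7.97 CPM in positive replicates 1 to 4, against 9.43 to 18.6 CPM in the negative samples, from 59 to 193 expected counts per sample. Positive replicates 2 and 4 fell below the negative range and positive replicate 3 above it. H2-DMb1 had 17.9, 16.1, 24.04 and 13.1 CPM in positive replicates 1 to 4, against 14.9 to 23.98 CPM in the negative samples. The edgeR log2 fold change was -0.08 ± 0.25 (SE) for H2-DMa, with a 95% interval from -0.63 to 0.47 and an adjusted p of 0.894. For H2-DMb1 it was -0.05 ± 0.18 (SE), with a 95% interval from -0.44 to 0.34 and an edgeR adjusted p of 0.906. H2-DMb2, a neighbouring copy of H2-DMb1, held 67.9 expected counts over all samples against 1602 for H2-DMb1. The expected counts of both were not whole in most samples, since RSEM divides reads that fit both, so the split between them is uncertain.

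Ciita, the transactivator, had 14.5, 14.7, 27.9 and 14.9 CPM in positive replicates 1 to 4, against 15.7 to 26.4 CPM with a median of 19.6 CPM in the negative samples, from 110 to 272 expected counts per sample. Positive replicates 1, 2 and 4 lay close together and below every negative sample, and positive replicate 3 was the highest of all 11. The means (± SD) were 18.0 ± 6.64 CPM over the 4 positive samples and 19.9 ± 4.03 CPM over the 7 negative samples, with an edgeR log2 fold change of -0.14 ± 0.21 (SE), a 95% interval from -0.60 to 0.32 and an adjusted p of 0.754. This value rests on a single library: without positive replicate 3 the log2 fold change was -0.43, with an unadjusted edgeR p of 0.0253 and an adjusted p of 0.233. For H2-DMa the log2 fold change was -0.45 without that library (unadjusted p = 0.0455, adjusted p = 0.272 with edgeR).

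Across samples the 6 chain and chaperone genes varied together. Over the 11 samples and 15 pairs, Pearson's r of log2 CPM between them ran from 0.83 (H2-DMa with H2-DMb1) to 0.98 (H2-Ab1 with H2-Eb1). These are descriptions over points that share a library. Against Ciita, r was 0.67 for H2-Aa, 0.76 for H2-Ab1, 0.77 for H2-Eb1, 0.76 for Cd74, 0.77 for H2-DMa and 0.88 for H2-DMb1. In two-sided permutation tests with 100000 resamples, adjusted with Benjamini-Hochberg over these 6 relations, all 6 passed 0.05, with adjusted p from 0.00288 for H2-DMb1 to 0.0226 for H2-Aa. As background, 347 of the 14587 tested genes other than Ciita (2.38%), the 6 included, had an r with Ciita of at least the lowest of the 6. Spearman's rho was lower, from 0.43 for H2-Aa (permutation p = 0.190) and 0.55 for Cd74 (permutation p = 0.0817) to 0.66 for H2-Eb1, 0.67 for H2-Ab1, 0.69 for H2-DMa and 0.70 for H2-DMb1 (permutation p from 0.0211 to 0.0310), and with adjusted p up to 0.0465 it passed for the last 4.

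The relation with Ciita was not kept for every gene without the libraries at the top of the range. Without the 2 samples farthest from the median of Ciita, positive replicate 3 and negative replicate 1, r was 0.61 to 0.78, and 2 of 6 relations passed the exact permutation test after adjustment (H2-DMa and H2-DMb1, both adjusted p = 0.0497). Without negative replicate 3 and positive replicate 3, a choice made after the data were seen, r was 0.34 for H2-Aa and 0.51 to 0.79 for the others, and 0 of 6 passed with the exact permutation test, while H2-DMb1 alone had an unadjusted p under 0.05 (p = 0.0136, adjusted p = 0.0817). Within the 7 negative samples, r was 0.47 for H2-DMa, 0.74 to 0.80 for H2-Aa, H2-Ab1, H2-Eb1 and Cd74, and 0.94 for H2-DMb1. There the exact permutation test passed for H2-DMb1 only (adjusted p = 0.0274), and the other adjusted p lay between 0.0576 and 0.292. The 4 positive samples were too few for a correlation.

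**Figure D2:**
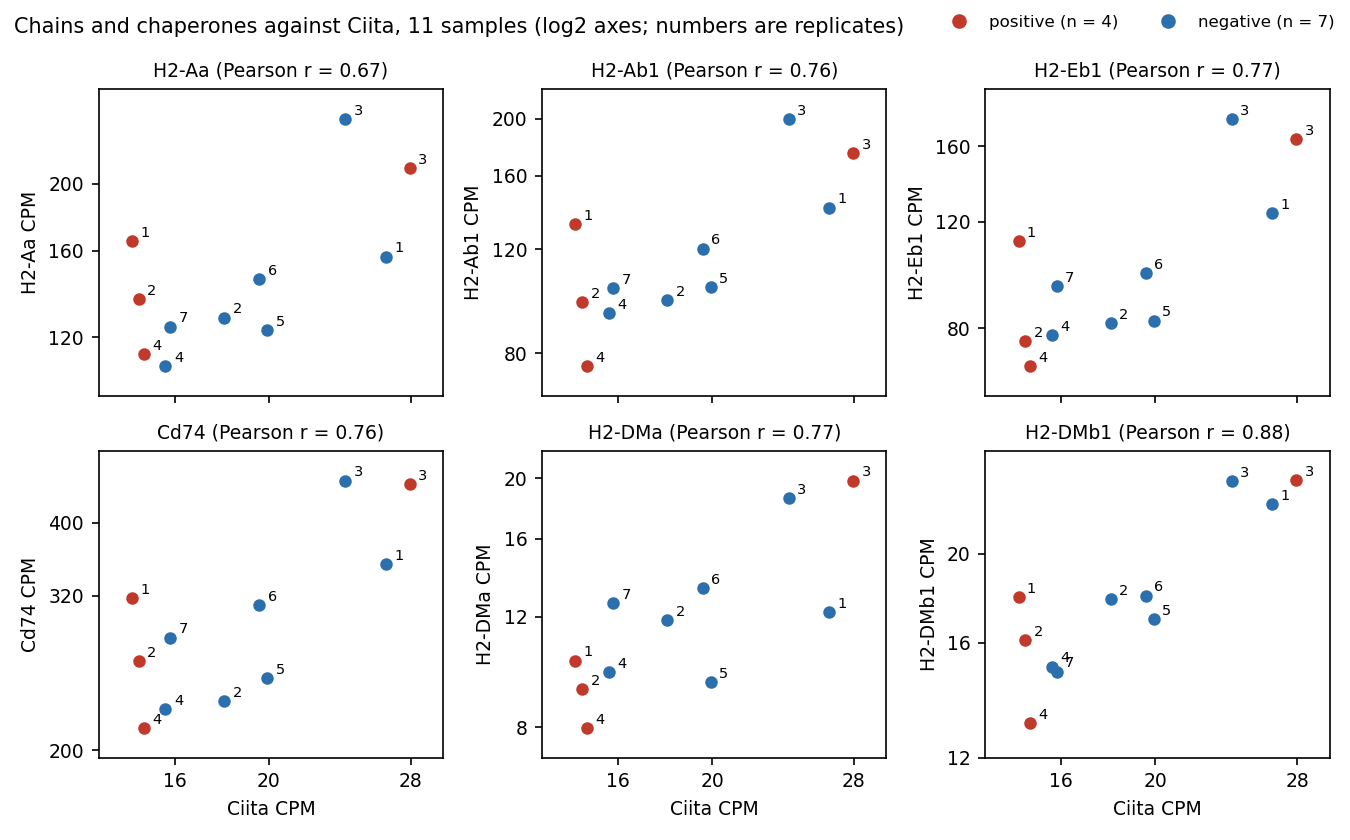
CPM of 6 class II genes (vertical, log2 axis) against CPM of Ciita (horizontal, log2 axis) in 4 positive and 7 negative samples, each point labelled with its replicate number. Positive replicate 3 and negative replicate 3 hold the upper right of each panel, negative replicate 1 lies at the second highest Ciita but at a middling H2-DMa, and positive replicate 1 lies above the other positive samples of similar Ciita.

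Set against Ciita as a ratio, the chains ranked the libraries differently from their levels. The summed TPM of H2-Aa, H2-Ab1 and H2-Eb1 was 149.5, 112, 102 and 91.3 times that of Ciita in positive replicates 1 to 4, and 81.3 to 135 times in the negative samples. The highest ratios were those of positive replicate 1 and negative replicate 3, so that of the libraries with the highest chain levels 1 had a high ratio (negative replicate 3) and 1 had not (positive replicate 3). The mean (± SD) was 114 ± 25.3 over the 4 positive samples, against 97.5 ± 18.5 over the 7 negative samples, with overlapping values. As a score over the members the ratio was not tested. The ratio of H2-Aa to H2-Ab1 was 1.43, 1.60, 1.38 and 1.71 in positive replicates 1 to 4, against 1.27 to 1.49 in the negative samples, also overlapping.

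**Figure D3:**
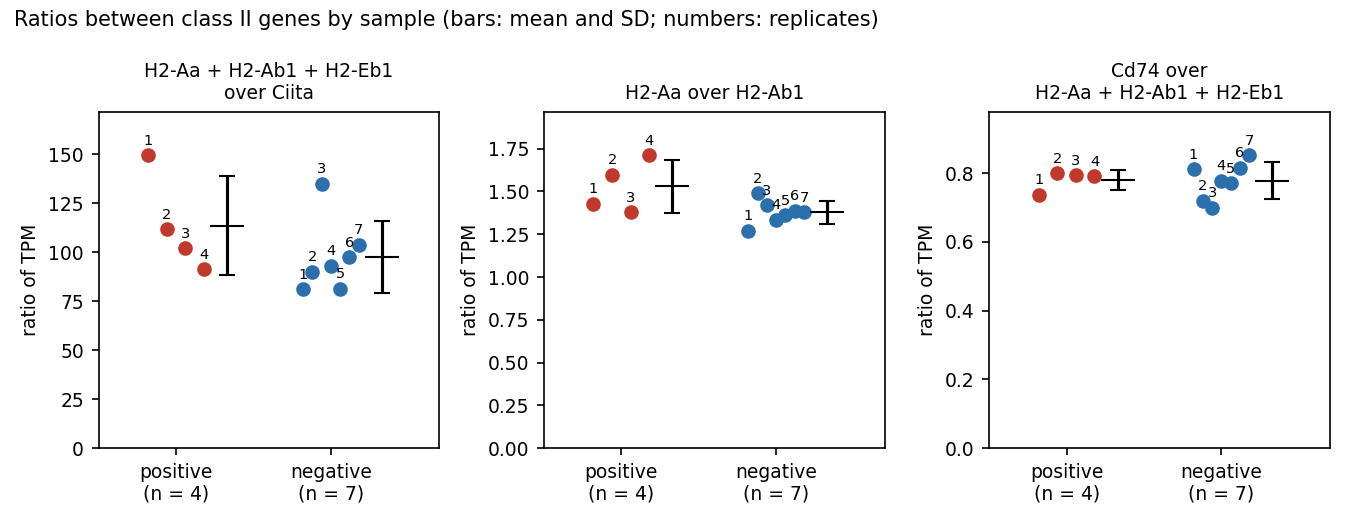
Ratios of TPM in each sample of the positive (left, n = 4) and negative (right, n = 7) group, with the mean and SD beside the points and replicate numbers above them. The groups overlap in each panel, and Cd74 over the chains stays between 0.700 and 0.852.

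The levels of class II genes and those of C1qb and Ptprc were distributed differently over the samples. C1qb, a complement gene of tissue macrophages, had 124, 101, 49.8 and 59.8 CPM in positive replicates 1 to 4, against 44.6 to 69.8 CPM in the negative samples. Its lowest value was that of negative replicate 3, the library with the highest H2-Aa, H2-Ab1 and H2-Eb1. Ptprc, the CD45 gene of all leukocytes, had 168, 107, 70.7 and 73.6 CPM in positive replicates 1 to 4, against 50.8 to 90.8 CPM in the negative samples, with the lowest again in negative replicate 3. Ptprc did not stand for the 4 pan-leukocyte genes listed, whose summed TPM was lowest in negative replicate 4, at 136 against 155 in negative replicate 3. The mean r with H2-Aa, H2-Ab1, H2-Eb1 and Cd74 over the 11 samples was -0.05 for Ptprc, 0.07 for Laptm5, 0.24 for Coro1a and 0.39 for Cd52. In the list of 12 macrophage and monocyte genes, 8 had an unadjusted edgeR p under 0.05 with a higher level in the positive group, where 7.05% of all tested genes had such a p in that direction, and 0 passed adjusted over all genes. The list summed to between 942 and 2555 TPM in the positive and between 804 and 1377 TPM in the negative group. The part of cell composition in the class II values was not tested.

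Dendritic cell genes gave another distribution. Itgax, the integrin CD11c of dendritic cells and some macrophages, had 22.3, 15.5, 29.0 and 7.83 CPM in positive replicates 1 to 4, against 10.0 to 23.6 CPM in the negative samples. Its highest value was in positive replicate 3 and its lowest in positive replicate 4, the libraries at the top and bottom of the positive group for the class II chains. In negative replicate 3 it stood at 14.96 CPM. By summed TPM, Itgax did not stand for its list: the sum of the dendritic cell genes was 73.1, 113, 66.7 and 67.6 in positive replicates 1 to 4, lowest in replicate 3. The list's score, the mean standardised log2 CPM of its tested genes, gave another order. It was 0.38, -0.10, 0.31 and -0.22 in positive replicates 1 to 4, lowest in replicate 4 as for Itgax. In negative replicate 3 the score was 0.10 and the sum 55.3 TPM. Clec10a, a lectin gene of dendritic cells and macrophages, had a mean r of -0.21 with H2-Aa, H2-Ab1, H2-Eb1 and Cd74, against 0.68 for Itgax. Cd207, the langerin gene of Langerhans cells, was low throughout, at 0.997, 3.70, 2.57 and 3.78 CPM in positive replicates 1 to 4 and 0.558 to 3.77 CPM in the negative samples, from 4 to 29 expected counts. Of 8 dendritic cell genes 7 were tested, and 0 had an unadjusted edgeR p under 0.05, where 16.8% of all tested genes had such a p. Their log2 fold changes were above 0 for 4 and below 0 for 3, with a median of 0.24. The list summed to 66.6 to 113 TPM in the positive and 47.4 to 97.3 TPM in the negative group.

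B cell markers were close to absent. Ms4a1 had at most 2 and Pax5 at most 1 expected count in any sample, and 6 of the 7 B cell genes listed did not pass the filter on low counts. Their sum lay between 2.13 and 3.07 TPM in the positive and between 0.990 and 2.46 TPM in the negative group. H2-Oa and H2-Ob, the chains of the H2-DM inhibitor H2-O, were low too, with 18 and 79 expected counts over all 11 samples.

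**Figure D4:**
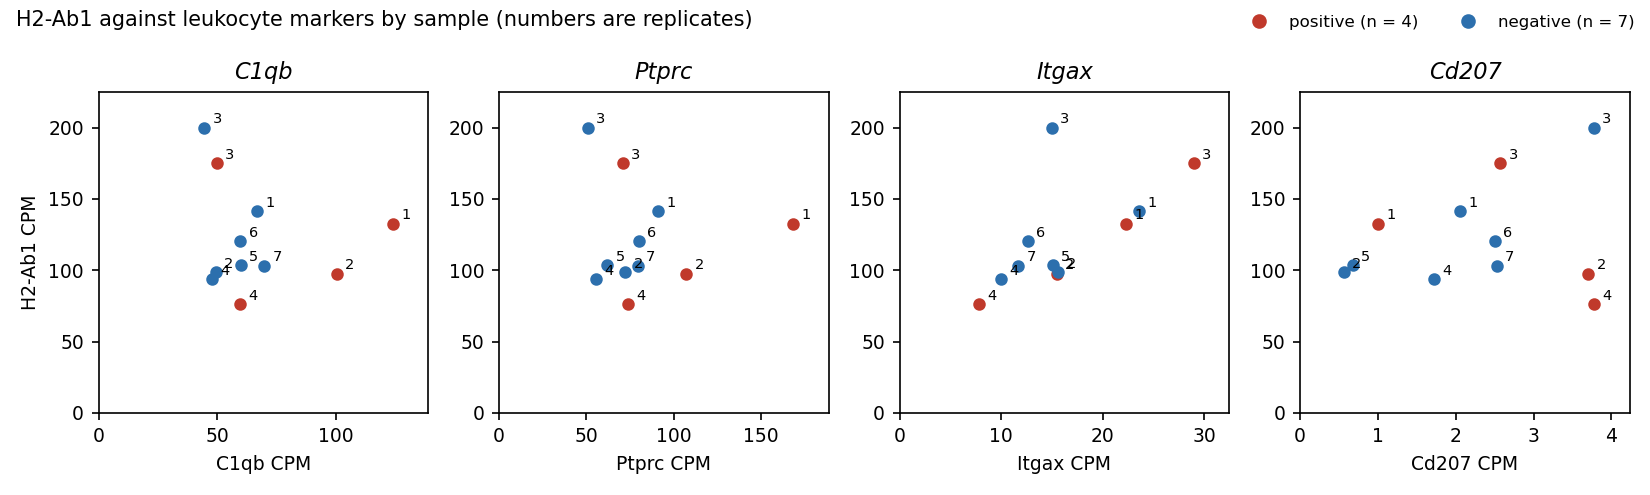
H2-Ab1 CPM (vertical) against CPM of C1qb, Ptprc, Itgax and Cd207 (horizontal) in 4 positive and 7 negative samples, labelled with replicate numbers. Replicate 3 of both groups stands high for H2-Ab1 at low to middling C1qb, and positive replicate 1 has the highest C1qb and Ptprc at a middling H2-Ab1.

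The samples with the highest class II levels also differed in hair follicle genes. The hair follicle list summed to 657 TPM in positive replicate 3 and to 29818 TPM in negative replicate 3, the third lowest and the highest sum of the series. With the score of that list as a covariate, 0 of 7 members passed edgeR's test adjusted over all genes and their median log2 fold change was -0.05. In residuals from that score, the correlations of the 6 chain and chaperone genes with Ciita were 0.68 to 0.88, and 6 of 6 passed the permutation test with adjusted p from 0.00246 to 0.0205.

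The other genes of the class II route were followed from a list of 21 symbols, of which 18 were in the files and 13 were tested. With edgeR 0 passed in either direction adjusted over all genes, and at an unadjusted p under 0.05 2 were higher and 0 lower, where 7.05% of all tested genes were higher and 9.73% lower. The median log2 fold change was 0.04. The enhanceosome genes, whose products bind the X and Y boxes, lay between -0.26 for Rfxank and 0.12 for Rfx5, with Rfxap at -0.04, Nfya at -0.10, Nfyb at 0.04 and Creb1 at 0.05. None of these had an unadjusted p under 0.05. Among the lysosomal enzymes, Ctss, the cathepsin S that trims the invariant chain, had 284, 224, 128 and 123 CPM in positive replicates 1 to 4, against 86.9 to 157 CPM in the negative samples. Its high values were in positive replicates 1 and 2, as for C1qb, with an edgeR log2 fold change of 0.60 ± 0.24 (SE) and an adjusted p of 0.261. Lgmn, an asparagine endopeptidase of the same compartment, and Ifi30, the lysosomal thiol reductase GILT, had log2 fold changes of 0.47 and 0.18 with adjusted p of 0.299 and 0.499.

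March1, the ubiquitin ligase that sends class II and CD86 molecules to degradation, had 35.4, 27.9, 12.9 and 20.3 CPM in positive replicates 1 to 4, against 9.16 to 16.6 CPM in the negative samples. The lowest sample was negative replicate 3, and positive replicate 3 was the lowest of its group. Both libraries were the highest of their group for H2-Aa, H2-Ab1 and H2-Eb1. The order was not reversed throughout, since positive replicate 4, the lowest of its group for these chains, was not the highest for March1. The mean r of March1 with H2-Aa, H2-Ab1, H2-Eb1 and Cd74 was -0.40. The edgeR log2 fold change of March1 was 0.70 ± 0.24 (SE), with an adjusted p of 0.248, and the groups overlapped. Its relative March8 had a log2 fold change of -0.06.

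In the list of interferon-gamma signaling to Ciita, 11 of 12 genes were tested. With edgeR 1 of them, the kinase gene Jak1, was higher at an unadjusted p under 0.05 (log2 fold change 0.38, adjusted p = 0.252) and 0 lower, where 7.05% of all tested genes were higher at such a p. The list median was 0.16. Ifng itself had at most 2 expected counts in any sample and was not tested. Irf1, which acts on the interferon-responsive promoter of Ciita, had 39.1, 36.9, 25.7 and 19.2 CPM in positive replicates 1 to 4, against 24.6 to 32.8 CPM in the negative samples. Positive replicate 3, highest of all for Ciita, lay within the negative range for Irf1.

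Genes of costimulation and of the T cells that recognise class II were tested beside them. Of 6 costimulation genes 1 was higher and 1 lower at an unadjusted edgeR p under 0.05, where 7.05% of all tested genes were higher and 9.73% lower, and 0 passed adjusted over all genes. Cd86, a ligand of CD28, had 15.5, 14.0, 9.66 and 9.18 CPM in positive replicates 1 to 4, against 5.66 to 9.53 CPM in the negative samples, with an edgeR log2 fold change of 0.73 ± 0.18 (SE) and an adjusted p of 0.248. Icosl, the ligand of ICOS, had 18.3, 13.9, 16.3 and 17.1 CPM in positive replicates 1 to 4, against 16.7 to 25.9 CPM, with -0.37 ± 0.12 (SE) and an adjusted p of 0.248. Of 5 tested T cell genes 3 were higher at an unadjusted edgeR p under 0.05, against 7.05% of all tested genes, and 0 passed adjusted. Cd3e and Lck, with log2 fold changes of 0.30 and 0.20, had no such p. Cd4, the coreceptor that binds class II, had 19.3, 15.1, 11.1 and 8.24 CPM in positive replicates 1 to 4, against 5.32 to 10.0 CPM in the negative samples, with 0.82 ± 0.23 (SE) and an adjusted p of 0.248.

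**Figure D5:**
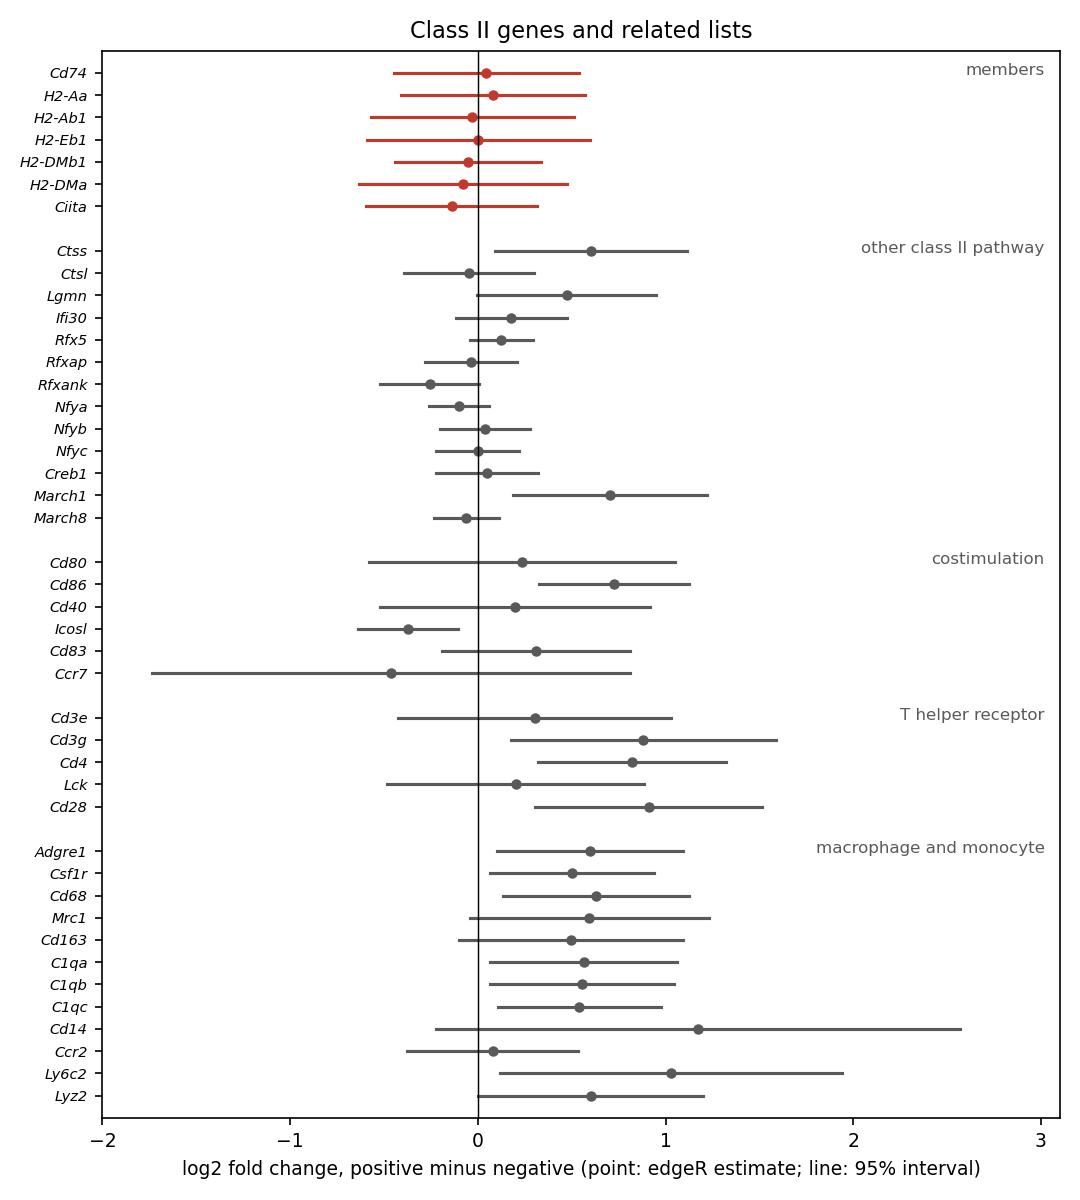
The edgeR log2 fold change (positive minus negative, horizontal) of each tested gene in 5 lists, with points for estimates and lines for 95% intervals. The 7 class II genes at the top lie between -0.14 and 0.08 with intervals that include 0, and none of the genes shown passed the adjusted threshold.

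The genes outside the list whose pattern over the 11 samples was most like that of H2-Aa, H2-Ab1, H2-Eb1 and Cd74 were ranked by the mean Pearson's r of log2 CPM with these 4, among 12121 genes with a mean of at least 5 CPM. They were Sys1 (0.92), Sec24b (0.89), Zfp384 (0.89), Wdfy4 (0.88), Ptcd1 (0.87), Oaz1 (0.83), Sod1 (0.83) and Tyw1 (0.82). Ciita itself ranked 55th by this measure, with 0.74, in an order that counted the 4 genes themselves. H2-DMb1 stood at 0.91 and H2-DMa at 0.87. Wdfy4, a gene needed for cross-presentation by mouse dendritic cells, had 34.1, 24.0, 42.5 and 21.3 CPM in positive replicates 1 to 4, against 23.2 to 39.9 CPM in the negative samples. The genes outside the list most like Ciita were Tmem134 (0.93), Ccdc88c (0.91), Abhd16a (0.91), Cog8 (0.90) and Zfp865 (0.89). H2-DMb1, at 0.88, ranked 8th in an order that counted Ciita itself as the first. Itgax ranked 597th in that order, with 0.61. By the mean r with H2-Aa, H2-Ab1, H2-Eb1 and Cd74, Itgax ranked 139th, with 0.68. All points share their libraries, and the measure was not tested.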

How the data were processed

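Total RNA libraries, made with the KAPA RNA HyperPrep kit with RiboErase per the labels' protocols, were read on a NextSeq2000. Per the submitters' processing notes the tools were bcl2fastq, Trim Galore and RSEM, on GRCm38, with versions, aligner and strand not given in the sources used here. Per the file headers, the authors deposited expected counts (RSEM estimated read counts, not normalized), TPM (relative to effective length) and effective lengths, which served other scalings. Values of near-identical gene copies, which divide reads, are uncertain.

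Expected counts were rounded. Genes passing filterByExpr (minimum count 10, total 15) were tested with edgeR 4.0.16 glmQLFit (legacy mode) and glmQLFTest on TMM-scaled counts, group as the only term, with Benjamini-Hochberg adjustment over all genes (R 4.3.3). Standard errors are the absolute log2 fold change over the root of F. Correlations used log2 CPM with a prior count of 2, and TPM alternatives used log2(TPM + 1) and log2(TPM + 0.1). Tests were checked on simulated data. No library was a copy of another (lowest chi-square per degree of freedom 3.57). A count of 0 allows up to 3 counts, for counting error only.

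Members, lists and the rule for named genes (all members, any gene of the 4 related lists, the 8 genes most like the chains and the 5 most like Ciita) were chosen with earlier results of these data known. The other markers are named as composition values. Alternatives were other scalings, filters, DESeq2 1.42.0, limma 3.58.1 (voom, trend), length offsets, a hair covariate, a replicate block and leaving out samples. Some genes of the lists, which count in the lists' totals and medians, are not reported here singly.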

Additional observations from a re-analysis of the deposited data

Results flagged for a closer look

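A single value far from the rest of its group was found 4 times in 16 sets of values, where chance flags about 1 in 20 sets. The sets are not independent, since the genes move together. Ciita stood at 27.9 CPM in positive replicate 3 and at 14.5 to 14.9 CPM in the other 3 positive samples. H2-Aa stood at 248 CPM in negative replicate 3 and at 109 to 157 CPM in the other negative samples. H2-DMa stood at 18.6 CPM in negative replicate 3 and at 9.43 to 13.4 CPM in the others. The ratio of the summed TPM of H2-Aa, H2-Ab1 and H2-Eb1 to Ciita TPM was 135 in negative replicate 3 and 81.3 to 104 in the others.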

How the results depend on the processing

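In all 24 alternative fits, 0 of 7 members passed an adjusted p of 0.05, also where DESeq2 called 83 genes (0.658%) and limma-voom with sample quality weights 2093 (14.3%) against 0 with edgeR. The fit without negative replicate 4 called 1 gene and that without negative replicate 7 called 3. The median log2 fold change of the members lay between -0.26 and 0.14 when each sample was left out, and the lowest came without positive replicate 3. Signs of these small values changed with the tool, the scaling and single libraries: that of H2-Eb1 differed from the reported one in 13 of the 24 fits, that of H2-Ab1 in 5 and that of Ciita in 0. The mean log2 ratio of the chains to Ciita (positive minus negative), 0.22, lay between 0.08 and 0.31 when each sample was left out. The count of chains correlated with Ciita was 5 or 6 when each sample was left out, 2 without the 2 samples farthest from the median of Ciita, 1 in the negative group only and 0 with both libraries of highest H2-Aa left out. These 3 settings hold fewer samples, and the last was chosen after the data were seen. With both libraries of highest macrophage score left out, also chosen afterwards, it was 6. Correlations of deviations between same-numbered samples were -0.04, -0.14, -0.05 and 0.34 for replicates 1 to 4, so not every pair deviated together and the numbers were not taken to pair the samples. With a replicate block over replicates 1 to 4, 0 members passed and their median was -0.15. Depth limits H2-DMa, H2-DMb1 and Ciita most, with as few as 59, 96.8 and 110 expected counts in a sample.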
